A study of Rattus norvegicus with 8 samples.

Results

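In NR8383 cells at passage 200, 35 autosomal array probes that gave a clear signal at passage 20 were at background on every array. These probes stand for 33 genes or transcripts: 27 carry a gene symbol and 6 are probes of unnamed transcripts. They were chosen on their measured values. A probe was taken if its log2 processed signal, less the 75th percentile of its array, was above -3 on all 4 passage 20 arrays and below -4 on all 4 passage 200 arrays. Of 45598 distinct probes on the array, 16315 autosomal probes met the first condition and 39 of these met both, a share of 0.239%, and 4 of the 39 (Cxcl1, Cd40, Arhgap26 and Tes) are left out of the set by name. The mirrored rule, background at passage 20 and clear signal at passage 200, took 23 of 16244 probes (0.142%). Because the values chose the probes, their difference between passages is given as a description, with no test.

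NR8383 is an alveolar macrophage line that was derived from a normal rat by washing out the lung, and it grows as attached and floating cells in about equal parts. Cultures at passage 20 (P20) and at passage 200 (P200) were compared, with 4 biological replicates each and no treatment besides the passage number. Both groups were kept in DMEM with heat-inactivated fetal bovine serum, L-glutamine, penicillin, streptomycin and amphotericin B, and were seeded in flasks 48 h before harvest. RNA of each sample was labelled with Cy3 and hybridised to a single-colour Agilent rat array. All samples come from 1 line, so the replicates measure the spread between cultures of it.

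A gene is transcribed when its promoter is open to the factors that the cell type provides. Many promoters that are active across tissues are rich in CG dinucleotides (CpG islands) and free of DNA methylation, and methylation of such a promoter goes with stable silence. Promoters poor in CG more often belong to genes restricted to a few tissues. An expression array measures RNA alone, so neither methylation nor DNA copy number was measured here. In bulk RNA, fewer cells that express a gene and less RNA per cell cannot be told apart.

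The promoters of 22 member genes were matched in the RefSeq table of assembly GRCr8, which holds 250 bases before to 50 bases after each start. Those below are the 3 with the most and the 1 with the fewest CG in the bases before the start, among the matched members whose values are given array by array. They show how unlike the promoters of the set are. Capitals mark CG. Plcl2 (chr9:3529821-3530070, plus strand) held 38 CG in the 250 bases before its start, Gab1 (chr19:44035443-44035692, plus strand) held 29, and Gtsf1 (chr7:136435885-136436134, minus strand) held 1. Col4a1 held 33 in 250 bases. Its start lies 77 bases from that of Col4a2, which is read from the opposite strand, and the 76 bases between both starts (chr16:84885521-84885596, plus strand) are shown, with 13 CG.
Plcl2: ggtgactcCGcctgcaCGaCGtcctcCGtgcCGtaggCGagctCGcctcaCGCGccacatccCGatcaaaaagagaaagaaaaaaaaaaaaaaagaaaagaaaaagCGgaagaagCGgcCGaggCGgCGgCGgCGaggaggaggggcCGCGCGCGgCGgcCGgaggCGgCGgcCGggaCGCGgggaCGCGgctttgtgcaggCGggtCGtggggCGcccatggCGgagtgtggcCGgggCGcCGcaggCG
Gab1: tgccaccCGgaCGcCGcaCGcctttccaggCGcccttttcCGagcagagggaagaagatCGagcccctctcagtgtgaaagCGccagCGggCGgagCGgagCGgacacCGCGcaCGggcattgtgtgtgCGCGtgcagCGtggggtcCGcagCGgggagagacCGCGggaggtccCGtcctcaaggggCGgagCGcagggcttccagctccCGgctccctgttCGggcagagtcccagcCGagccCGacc
Col4a1: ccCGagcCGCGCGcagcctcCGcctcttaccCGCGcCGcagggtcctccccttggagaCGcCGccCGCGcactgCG
Gtsf1: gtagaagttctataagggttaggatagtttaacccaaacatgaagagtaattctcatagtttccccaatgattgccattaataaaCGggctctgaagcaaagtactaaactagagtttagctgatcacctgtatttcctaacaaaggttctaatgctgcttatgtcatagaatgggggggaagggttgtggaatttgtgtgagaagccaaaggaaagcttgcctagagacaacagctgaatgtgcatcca

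For the 6 transcripts without a gene symbol the first 30 bases of the 60-base probe are shown so that each can be looked up. Positions are those of the array files on rat assembly rn4. ENSRNOT00000074294 lies at chr6:22242131-22242187, DV723080 at chr2:219197218-219197277, FQ224877 at chr9:92571351-92571410, ENSRNOT00000015606 at chr10:69412454-69412513, BP488109 at chr4:42718955-42719014 and LOC102555148 at chr3:53953154-53953213.
ENSRNOT00000074294: cgtgtgatacatgcccagccattgtgatat
DV723080: actaacaatggcagagggcagagttcaaag
FQ224877: gtctttgagcagtttctcagcattggcatt
ENSRNOT00000015606: tgtgaacagctggtgactagtttgactctt
BP488109: ttaaggtgacatcagcatgagttataattc
LOC102555148: ccagccttctacagtgattcataggaagag

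All 8 arrays lay on 1 slide and were read in 1 scan. Between 51.0% and 54.5% of spots carried the scanner's mark for a signal well above background, and no spot was saturated. The label of a macrophage line was checked on markers: 12 of 15 macrophage markers were measured, while Adgre1, Marco and Cd163 did not pass the background filter. The summed linear signal of the 12 was 1121 to 1323 times the 75th percentile on P20 arrays and 1102 to 1137 times on P200 arrays. Such a sum is carried by the brightest markers. Of the 12 measured markers 3 fell and 9 did not pass the test. Across all 15283 genes tested, 1765 (11.5%) differed between passages at an adjusted p under 0.05 (limma, Benjamini-Hochberg), of which 919 (6.01%) rose and 846 (5.54%) fell.

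The P20 means of the 35 member probes ran from -2.74 to 0.71 (log2 relative to the 75th percentile of the array), with a median of -1.73. Their P200 means ran from -5.94 to -4.43, with a median of -5.55. The difference, P200 less P20, was -6.38 to -1.83 with a median of -3.86, beside a median of -0.01 over all 16315 autosomal probes above the P20 threshold. Every member probe was well above background on 4 of 4 P20 arrays and on 0 of 4 P200 arrays, and 13 probes had the scanner's surrogate value, a stand-in for a spot near background, on all 4 P200 arrays. The gap between the lowest P20 array and the highest P200 array of a probe was 1.41 to 5.95, with a median of 3.24. A P200 value therefore gives only an upper limit. Each array's value was raised to the lowest signal well above background on that array, and the P20 mean was set against the mean of these limits, which gives signals at least 1.86-fold to 20.3-fold lower at P200 (median 3.75). In the plot of member probes by array the order of the probes follows their own P20 signal and does not rank the genes' RNA, since probes differ in how well they bind.

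**Figure D1:**
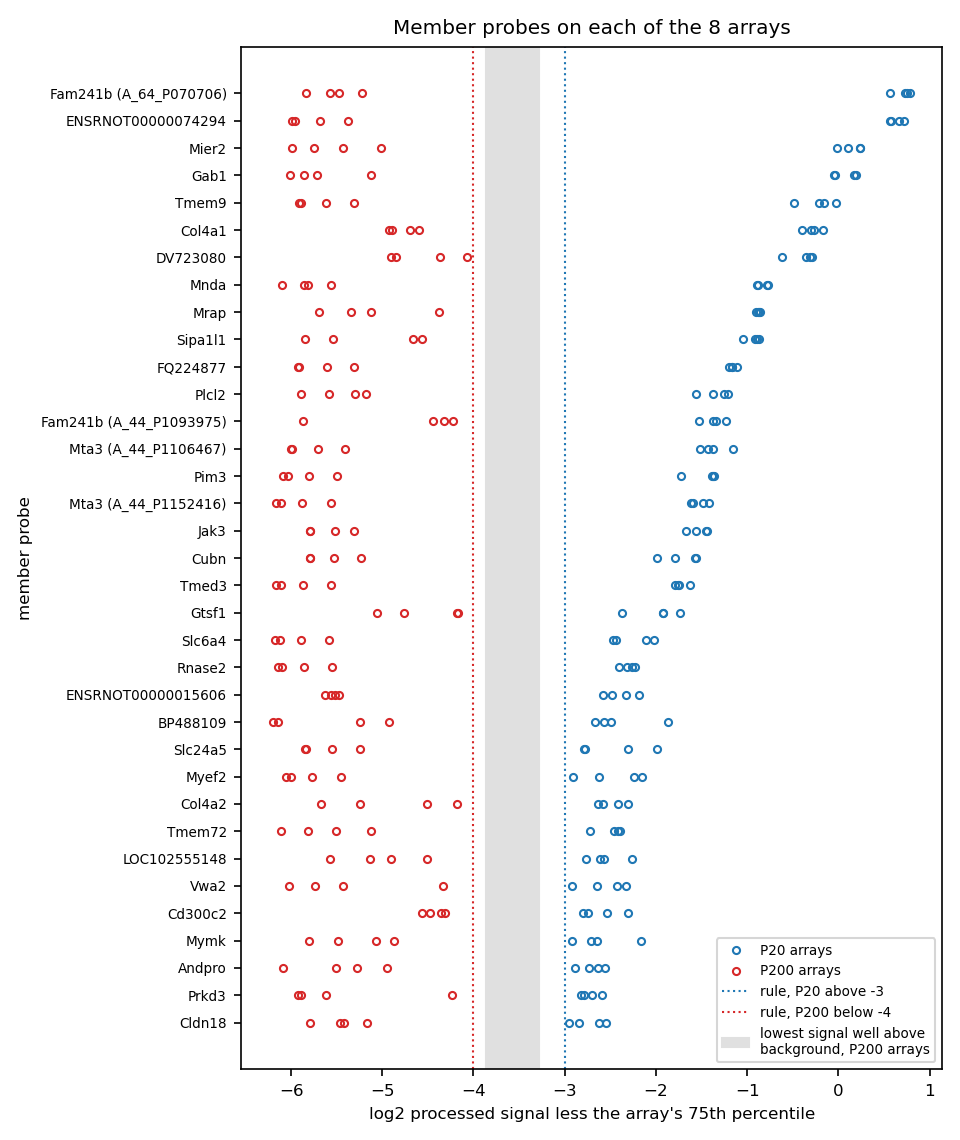
Log2 processed signal less the array's 75th percentile (x axis) of the 35 member probes (y axis) on each P20 array (blue) and each P200 array (red); dotted lines are the thresholds of the rule and the grey band spans the lowest signal well above background on the 4 P200 arrays. All P20 values lie to the right of -3 and all P200 values to the left of -4, which is what the rule asked for, and the red points fall left of the grey band.

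**Figure D2:**
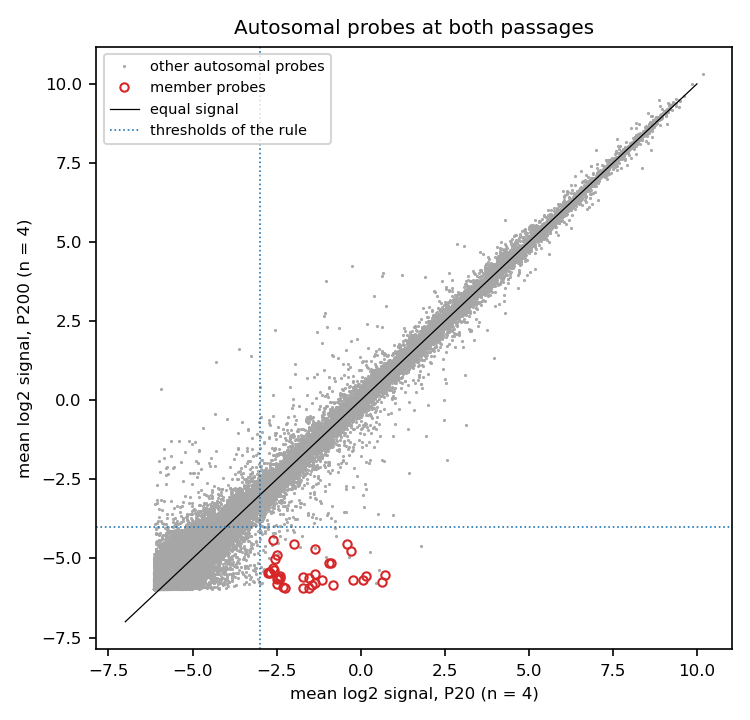
Mean log2 signal at P20 (x axis) and at P200 (y axis), each over 4 arrays, of every autosomal probe, with member probes in red, other probes in grey, equal signal as a line and the thresholds of the rule dotted. The member probes form the lower right corner, with P20 means from -2.74 to 0.71 and P200 means from -5.94 to -4.43.

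A first group of named members acts in signalling. Gab1 is an adaptor that carries signals from receptor tyrosine kinases. Its signal on the P20 arrays was 0.17, -0.03, -0.05 and 0.19, and on the P200 arrays it was -5.86, -6.01, -5.71 and -5.13, at least 13.1-fold lower. Jak3 is the kinase that the receptors of interleukins with the common gamma chain use, and it read -1.45, -1.68, -1.56 and -1.44 at P20 against -5.80, -5.79, -5.52 and -5.31 at P200, at least 4.30-fold lower. Pim3, a serine/threonine kinase, read -1.36, -1.38, -1.72 and -1.37 at P20 and -6.03, -6.08, -5.80 and -5.50 at P200, at least 4.53-fold lower. In each of these genes the 4 arrays of a group lay close together beside the distance between the groups. The rule selected on that distance.

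Plcl2 is a phospholipase C-like protein without catalytic activity. It gave -1.57, -1.21, -1.37 and -1.25 at P20 and -5.18, -5.89, -5.59 and -5.30 at P200, at least 4.88-fold lower. Sipa1l1 switches off the small GTPase Rap. Its P20 values were -0.89, -0.91, -0.87 and -1.05, and its P200 values were -4.56, -5.85, -5.54 and -4.66, at least 6.53-fold lower. The P200 arrays of Sipa1l1 formed a higher and a lower pair, both under the lowest signal well above background. Prkd3, a kinase of the protein kinase D family, had a P20 mean of -2.73 ± 0.10 (SD, n = 4) and was at least 1.88-fold lower at P200. A pair of further Prkd3 probes was not well above background on any array, so the Prkd3 result rests on 1 of 3 probes.

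Several members act on chromatin or on nucleic acids. Mier2 recruits histone deacetylases as a corepressor. On the P20 arrays it read 0.11, -0.01, 0.24 and 0.24, and on the P200 arrays -5.99, -5.02, -5.75 and -5.44, at least 13.7-fold lower. Mta3 is a subunit of the NuRD deacetylase and remodelling complex, and 2 probes of the gene were members. The first read -1.43, -1.38, -1.15 and -1.52 at P20 and -6.004, -5.99, -5.71 and -5.41 at P200, at least 4.81-fold lower. The second read -1.41, -1.59, -1.62 and -1.49 at P20 and -6.11, -6.16, -5.88 and -5.57 at P200, at least 4.31-fold lower. These probes span 31131 bases on chromosome 6, and both were at background on every P200 array, while a further Mta3 probe was not well above background on any array of either passage.

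Gtsf1 is a protein of the piRNA pathway, known from germ cells. Its signal was -1.74, -1.92, -2.37 and -1.92 at P20 and -5.06, -4.17, -4.76 and -4.18 at P200, at least 3.14-fold lower. Myef2, a nucleic acid-binding repressor of the myelin basic protein gene, had a P20 mean of -2.48 ± 0.35 (SD, n = 4) and was at least 2.22-fold lower. Mnda is an interferon-inducible nuclear protein of myeloid cells. Its member probe read -0.79, -0.89, -0.77 and -0.88 at P20 and -6.10, -5.81, -5.86 and -5.56 at P200, at least 6.98-fold lower. Another Mnda probe, 42924 bases away, read 2.52, 2.55, 2.50 and 2.48 at P20 and 0.27, 0.81, 1.12 and 0.45 at P200. That probe was lower on every P200 array than on every P20 array but stayed well above background on all 8, so the 2 probes of this gene symbol differ in whether a signal was left at P200.

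Another 4 members belong to the cell's membranes or its transport system. Tmem9 is a lysosomal membrane protein. Its P20 values were -0.15, -0.21, -0.49 and -0.03 and its P200 values were -5.90, -5.91, -5.62 and -5.31, at least 10.7-fold lower. Fam241b is a small membrane protein with 2 member probes 609 bases from end to end on chromosome 20. The first read 0.79, 0.75, 0.57 and 0.73 at P20 and -5.84, -5.48, -5.58 and -5.23 at P200, at least 20.3-fold lower. The second read -1.52, -1.34, -1.37 and -1.23 at P20 and -4.45, -5.87, -4.32 and -4.23 at P200, at least 4.83-fold lower. Both Fam241b probes thus lost their signal on all P200 arrays, with replicate 2 of the second probe lower than the other P200 arrays.

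Tmed3 belongs to the p24 family, which sorts cargo between the endoplasmic reticulum and the Golgi. It read -1.63, -1.79, -1.75 and -1.74 at P20 and -6.11, -6.16, -5.87 and -5.56 at P200, at least 3.75-fold lower. Mrap is the accessory protein that brings the melanocortin 2 receptor to the cell surface. Its P20 values were -0.88, -0.87, -0.86 and -0.90, and its P200 values were -5.12, -4.38, -5.69 and -5.35, at least 6.76-fold lower. The SD of its P20 arrays was 0.02, the smallest among the member probes.

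Genes of the basement membrane and of the cell surface made up a further group. Col4a1 and Col4a2 encode the chains that form the common type of basement membrane collagen. Col4a1 read -0.17, -0.27, -0.40 and -0.30 at P20 and -4.92, -4.69, -4.89 and -4.60 at P200, at least 10.2-fold lower, and as the mean of 10 spots it is the most repeated of the member probes. Col4a2 had a P20 mean of -2.48 ± 0.15 (SD, n = 4) and a P200 mean of -4.90 ± 0.68, at least 2.22-fold lower. The pair shares a promoter region, shown above, and both probes were at background on all P200 arrays. Vwa2, a secreted protein with von Willebrand factor A domains, was at least 2.08-fold lower.

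Cubn is the endocytic receptor for cobalamin bound to intrinsic factor. It read -1.56, -1.57, -1.99 and -1.79 at P20 and -5.79, -5.79, -5.53 and -5.23 at P200, at least 3.75-fold lower. Slc6a4 is the serotonin transporter, and it read -2.43, -2.02, -2.47 and -2.11 at P20 and -6.13, -6.17, -5.89 and -5.58 at P200, at least 2.6-fold lower. Slc24a5, the cation exchanger of melanosomes, read -1.99, -2.31, -2.78 and -2.78 at P20 and -5.83, -5.85, -5.55 and -5.24 at P200, at least 2.25-fold lower. All 3 were at background on every P200 array, and the rule itself keeps the P20 and P200 arrays of every member apart.

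Rnase2, a ribonuclease of eosinophil granules, read -2.41, -2.27, -2.32 and -2.23 at P20 and -6.10, -6.14, -5.85 and -5.55 at P200, at least 2.52-fold lower. Cd300c2, an immunoglobulin-like receptor of myeloid cells, was at least 2.06-fold lower, and a second probe of it had means of -2.59 at P20 and -3.99 at P200 with no P200 array well above background. Cldn18 is a tight junction protein of lung and stomach epithelium, and its member probe was at least 1.86-fold lower. A second Cldn18 probe was well above background on 0 P20 arrays and 1 P200 array, so the gene's signal at P20 rests on 1 of 2 probes. Mymk, which drives the fusion of myoblasts, was at least 2.04-fold lower, and its second probe was not well above background on any array. Tmem72 and Andpro complete the named members, at least 2.20-fold and 1.91-fold lower.

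Of the 6 unnamed transcripts, ENSRNOT00000074294 read 0.67, 0.72, 0.57 and 0.57 at P20 and -5.99, -5.96, -5.68 and -5.38 at P200, at least 19.3-fold lower. DV723080 read -0.35, -0.32, -0.29 and -0.62 at P20 and -4.85, -4.37, -4.07 and -4.91 at P200, at least 9.46-fold lower. FQ224877 read -1.20, -1.17, -1.11 and -1.16 at P20 and -5.92, -5.92, -5.61 and -5.31 at P200, at least 5.57-fold lower. In these 3 the SD of the P20 arrays was 0.07, 0.15 and 0.04. ENSRNOT00000015606, BP488109 and LOC102555148 were at least 2.36-fold, 2.36-fold and 2.12-fold lower.

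Membership at the edges of the rule hangs on single arrays. The probes just inside the P20 threshold were those of Cldn18, Vwa2 and Mymk, whose lowest P20 values were -2.95, -2.92 and -2.92. Those just outside were Layn, Sned1 and Impdh1, at -3.01, -3.02 and -3.09. At the P200 threshold DV723080, Gtsf1 and Col4a2 were just inside, with highest P200 values of -4.07, -4.17 and -4.18, and Cttn, Ucp3 and Epb41l1 were just outside at -3.997, -3.93 and -3.93. Cttn, which encodes the actin-binding protein cortactin, had a P20 mean of 1.79 and a P200 mean of -4.61, and 1 array kept it out of the set.

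The arrays of each passage read the set alike. The median of the 35 probes was -1.57, -1.68, -1.75 and -1.74 on the P20 arrays and -5.83, -5.85, -5.62 and -5.31 on the P200 arrays. P200 replicate 4 was the highest of its group in this median and had the lowest 75th percentile of processed signal, 197 beside 262 to 368 on the other P200 arrays. Its part in the members' values was not tested. Slide row 1 held P20 replicate 1 with P200 replicates 2 to 4, and slide row 2 held P20 replicates 2 to 4 with P200 replicate 1. Both passages were thus present in each row, 1 of them with a single array. The rule set the groups apart on every array, so the medians above cannot show whether the row had a part in them.

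Where the members lie in the genome was not part of the rule beyond the autosomes. The 35 probes fell into 31 separate loci on 16 of 20 autosomes when probes within 1 Mb were joined, and 4 loci held more than 1 probe. Mta3 and Fam241b each had 2 probes of the same gene. Slc24a5 and Myef2 have probes within 285 bases of each other on chromosome 3, on opposite strands. The probes of Col4a2 and Col4a1 span 257535 bases on chromosome 16. The other 27 loci held a single member probe.

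The nearest measured gene on each side of a member, within 1 Mb and not itself a member, was then examined. There were 60 such flanking genes, at a median distance of 97175 bases, and 55 of them were well above background on all 8 arrays. One of them, Tes, itself met the rule and is left out of the set by name, so its values are a description as for the members. Of the other 59, 6 fell and 6 rose in the test over all genes (limma, adjusted p under 0.05), while 47 did not pass it. The share that fell was 10.2%, beside 5.54% of all genes tested, and the share that rose or fell was 20.3%, beside 11.5%. Among the 6 that fell, Sned1 and Slc12a1 passed the background filter through P20 alone. Their tests set signal against background values, so the share that fell rests in part on such calls. The median change of the 59 genes was 0.01 on the log2 scale, against -0.000625 over all genes. For 19 of the 33 member genes no flanking gene, Tes counted, passed the test in either direction.

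Of these 59 genes, 2 were at least 2-fold lower at P200, a share of 3.39% beside 1.75% of all genes tested. Tes, the focal adhesion protein set apart above, lies 745 bases from the BP488109 probe, on the plus strand where BP488109 is on the minus strand. It read 0.50, 0.43, 0.52 and 0.41 at P20 and -5.98, -6.06, -5.75 and -5.32 at P200, at least 17.1-fold lower. Sned1, a secreted matrix protein, lies 3065 bases from the FQ224877 probe on the same strand. It read -2.06, -1.92, -2.07 and -0.97 at P20 and -4.26, -4.69, -4.68 and -3.58 at P200, at least 3.69-fold lower (limma, adjusted p = 0.000927), and a further probe of it just missed the P20 threshold. Slc12a1, the kidney sodium-potassium-chloride cotransporter, lies 147474 bases beyond Myef2. It read -2.79, -3.04, -2.66 and -2.60 at P20 and -4.36, -4.21, -4.15 and -3.61 at P200, at least 1.82-fold lower (limma, adjusted p = 0.00113). None of these 3 genes was well above background on a P200 array, so Sned1 and Slc12a1 passed the background filter through P20 alone. With fits inside a single slide row, of 4 arrays each, the call on Sned1 was lost in both rows and that on Slc12a1 in row 1, and the Slc12a1 call was also lost with normexp background correction and on the deposited series matrix.

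The other 4 flanking genes that fell are named because they are few, after their values were seen. Ifi214, beside Mnda and like it an interferon-inducible gene, fell by 0.94 on the log2 scale, from a mean of 1.73 to 0.79. Or6s1 beside Rnase2, Rab20 beside Col4a2 and Ndufaf7 beside Prkd3 fell by 0.59, 0.49 and 0.42, and Or6s1 was well above background on 3 of 4 P200 arrays. Of those that rose, Dlx1, a homeobox gene 111625 bases from LOC102555148, rose by 1.08 (SE 0.14, limma, adjusted p = 0.00148), from a mean of -1.60 ± 0.22 to -0.52 ± 0.24 (SD, n = 4 each). Itga6 on the other side of LOC102555148 rose by 0.53, and Nckap1l, Dzip1l, Trabd and Colgalt1, beside Gtsf1, Cldn18, Pim3 and Jak3, rose by 0.46, 0.42, 0.38 and 0.25.

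Of the flanking genes within a few kilobases of a member probe, some were lower at P200 and the others did not pass the test. Tes, Sned1, Rab20 and Ndufaf7, all lower at P200 as given above, lie 745, 3065, 5277 and 5977 bases from a member probe. Others kept their signal, and they are given for their closeness, after their values were seen. Insl3, an insulin-like hormone gene 1978 bases from the Jak3 probe, had means of -0.91 ± 0.10 at P20 and -0.83 ± 0.18 at P200 (SD, n = 4 each). Urb1, a ribosome biogenesis gene 2032 bases from the Mrap probe, had means of 1.45 ± 0.09 and 1.63 ± 0.16. Mterf4, a mitochondrial ribosome assembly factor 1177 bases from the FQ224877 probe on the side away from Sned1, had means of 0.65 ± 0.05 and 0.62 ± 0.11. Insl3, Urb1 and Mterf4 did not pass the test (limma, adjusted p = 0.695, 0.276 and 0.864), and all 3 were well above background on all 8 arrays.

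**Figure D3:**
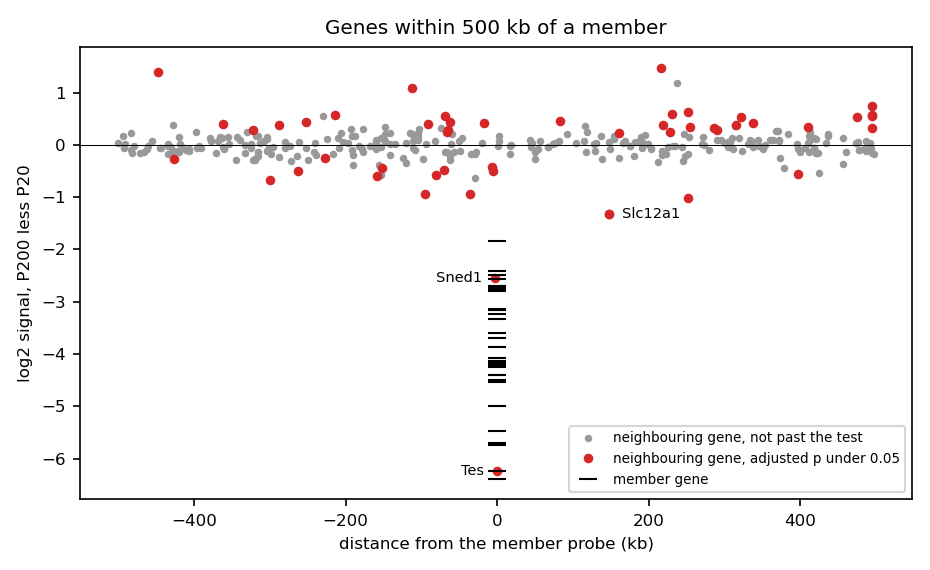
Change in log2 signal, P200 less P20 (y axis), of measured genes within 500 kb of a member probe by distance from it (x axis, kb, negative before the probe on the map); red points passed the test at an adjusted p under 0.05, grey points did not, and black bars at 0 are the member genes. Tes, which met the rule itself, and Sned1 and Slc12a1 are labelled at their changes of -6.24, -2.55 and -1.31, and every other neighbour plotted lies above Slc12a1.

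Promoter sequence was not used by the rule either. A window was called CpG-rich if its GC content was at least 55% and its CG count at least 0.65 of that expected from its C and G. Of the 22 matched member promoters, 10 (45.5%) were CpG-rich, beside 58.5% of 8133 genes above the P20 threshold, 50.6% of 2977 genes with a P20 signal in the members' range and 28.1% of all 27457 promoters in the table. The median count of CG in the 300-base window was 9.5 in the members, beside 21, 19 and 7 in the same 3 groups. The windows of Col4a1 and Col4a2 overlap by 176 bases, and each is counted in these shares and in the motif shares below. Genes are not replicates and no test was made of these shares.

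The member promoters fell into groups with no value between 10 and 22 CG. The CpG-rich promoters were those of Plcl2, Col4a1, Myef2, Col4a2, Gab1, Pim3, Mier2, Fam241b, Sipa1l1 and Tmed3, with 22 to 43 CG in 300 bases. These include the signalling members Gab1, Pim3, Plcl2 and Sipa1l1, the corepressor Mier2 and both collagen genes. The other 12 held 0 to 10 CG, and among them were Mnda, Rnase2 and Cd300c2, which are known from myeloid cells or granulocytes, with 2, 3 and 1, and the epithelial genes Cubn and Cldn18 with 6 and 9. Prkd3 had none. The GC box GGGCGG, counted on both strands, was in 10 of 22 windows (45.5%), beside 60.9% of the promoters of genes above the P20 threshold, 54.2% of those in the members' P20 range and 34.9% of all in the table. The purine-rich core GAGGAA, part of sites of the macrophage factor PU.1 and counted on both strands, was in 3 of 22 (13.6%), beside 26.9%, 27.4% and 27.5%. A match to either motif describes the letters in the window and no bound factor.

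**Figure D4:**
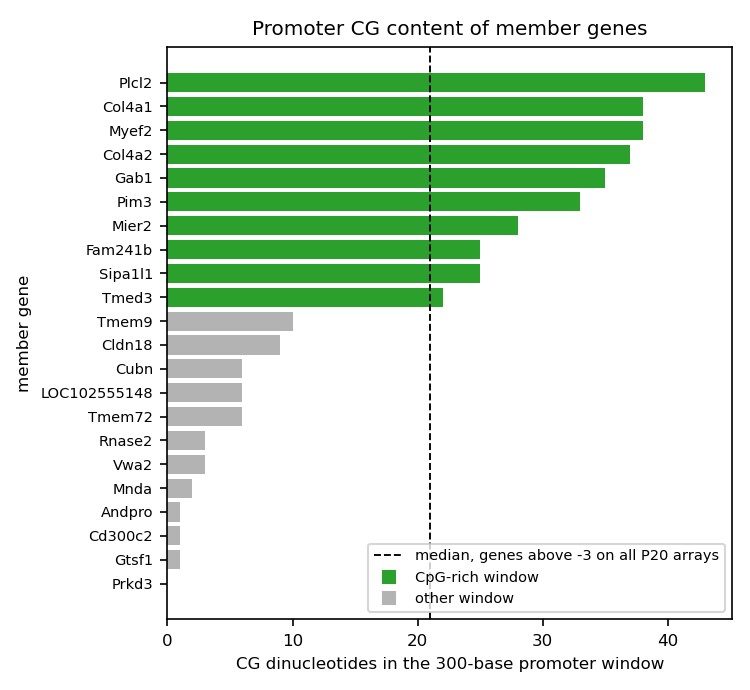
Count of CG dinucleotides in the 300-base promoter window (x axis) of the 22 matched member genes (y axis), green for CpG-rich windows and grey for others, with the median of the 8133 genes above the P20 threshold, 21, dashed. The bars form a green set from 22 to 43 and a grey set from 0 to 10.

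Genes that write, read or remove DNA methylation and repressive histone marks were listed apart from the members. Of 49 listed, 42 were measured. Among these the test called 3 rises and 1 fall and did not call 38 (limma), so 9.52% were called beside 11.5% of all genes. The median change was 0.04. Dnmt3b, a de novo DNA methyltransferase, read -2.92, -2.90, -3.28 and -2.75 at P20 and -1.89, -1.73, -1.98 and -1.92 at P200, a rise of 1.08 (SE 0.12, limma, adjusted p = 0.000400), with every P200 array above every P20 array. Cbx8, a Polycomb subunit, rose by 0.32 (SE 0.09), Mbd4, a methyl-CpG binding glycosylase, rose by 0.26 (SE 0.07), and Phc1, another Polycomb subunit, fell by 0.26 (SE 0.07), with adjusted p = 0.0452, 0.0353 and 0.0452 (limma). The last 3 calls were lost with the array median as scale and without any of several single arrays, which left a count of 1 or 2. Dnmt3b kept its call in all fits except those inside a single slide row.

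Of 50 listed genes often methylated at the promoter in tumours and cell lines, 17 were measured, and the rest did not pass the background filter. Of the 17, 1 rose, 1 fell and 15 did not pass the test. The share called was 11.8%, beside 11.5% of all genes, and the median change was -0.02. Cdkn2a, the gene of the cell cycle inhibitor p16 and of p19Arf, was the one that fell. It read -0.49, -0.86, -0.72 and -0.96 at P20 and -3.85, -4.44, -4.22 and -3.63 at P200, at least 7.36-fold lower (limma, adjusted p = 5.82e-06). Cdkn2a was not well above background on any P200 array, so it passed the background filter through P20 alone and its test set signal against background values. Its neighbour Cdkn2b, which encodes p15, rose by 0.48 (SE 0.12, limma, adjusted p = 0.0382), from -0.47 ± 0.21 to 0.02 ± 0.17 (SD, n = 4 each). The Cdkn2b call was lost in 7 of 8 fits that left out 1 array, the exception being that without P20 replicate 3.

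Imprinted genes carry a methylated and an unmethylated allele. Of 46 listed, 17 were measured. Among these the test called 5 rises and 0 falls and did not call 12. The share that rose was 29.4%, beside 6.01% of all genes, and the median change was 0.07. Sgce, which encodes epsilon-sarcoglycan, was not well above background on any P20 array and was on all P200 arrays. It thus passed the background filter through P200 alone, and its test set signal against background values. It read -4.67, -4.79, -5.48 and -5.41 at P20 and -2.10, -2.42, -3.14 and -2.84 at P200, at least 2.26-fold higher (limma, adjusted p = 0.000400). Mkrn3, Inpp5f and Slc22a18 rose by 0.56, 0.41 and 0.39 on the log2 scale (limma, adjusted p = 0.00242, 0.00261 and 0.0165). Scaled on the array median, 1 imprinted gene was called and not 5.

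Related genes of the members' own families were compared, from a list written after the members were known. Of 42 listed, 24 were measured. Of these, 0 passed the test in either direction (limma), beside 11.5% of all genes, and 6 had an unadjusted p under 0.05. Their changes ran from -0.35 to 0.64 with a median of 0.04. Fam241a, the family partner of Fam241b, had the smallest p, with means of -1.80 ± 0.09 at P20 and -2.15 ± 0.21 at P200 (SD, n = 4 each, limma, adjusted p = 0.0729).

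Markers of cell types were read beside the members. Of the macrophage markers Msr1, the class A scavenger receptor, fell by 3.09 (SE 0.18), Cd14 by 0.91 (SE 0.13) and Itgam by 0.78 (SE 0.13), with adjusted p = 8.06e-06, 0.00261 and 0.00518 (limma). All 3 stayed well above background on all P200 arrays. No lung epithelial marker passed the background filter besides the member Cldn18, and no granulocyte or mast cell marker did. Of endothelial markers 3 of 6 were measured, with a summed linear signal of 14.3 to 16.9 on P20 and 15.7 to 19.1 on P200 arrays, and Vwf had the smallest p, with a change of 0.15 (limma, adjusted p = 0.447). Another Vwf probe had means of -1.38 ± 0.23 at P20 and 0.74 ± 0.15 at P200 (SD, n = 4 each), and with the mean of the gene's probes Vwf rose by 1.14 (limma, adjusted p = 2.62e-05), so the call rests on the choice of probe. Of fibroblast markers 3 of 7 were measured, summing to 6.57 to 7.58 and 7.36 to 8.66, and Dcn had the smallest p, with a change of 0.21 (adjusted p = 0.236). Col1a1, Col3a1, Lum and Pdgfra did not pass the filter. Of lymphocyte markers Cd3d and Nkg7 were measured, summing to 0.55 to 0.59 and 0.83 to 1.15, and Nkg7, a granule protein of cytotoxic lymphocytes, rose by 1.49 (SE 0.15, limma, adjusted p = 0.000247). Cd3e, Ms4a1 and Cd79a did not pass the filter. The part of any of these markers in the members' values was not tested.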

How the data were processed

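The deposited scanner files of 8 single-colour arrays give spot intensity on a linear scale. The authors read the images with Agilent Feature Extraction 11.0.1.1, per the submitters' processing notes. Per the file headers, this software subtracted background and gave spots close to background a surrogate value. Nothing was normalized between arrays. Control and outlier spots were left out, processed signal was taken to log2, spots of a probe were averaged, and each array's 75th percentile over probes was subtracted. Signal over background and the number of arrays limit the precision.

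The members, lists and tests were chosen with earlier results of these data known. For the tests, a probe had to be well above background on all 4 arrays of a group, and the brightest probe on average stood for a gene. P200 was compared with P20 in limma 3.58.1 (R 4.3.3; lmFit, eBayes, two-sided, Benjamini-Hochberg over 15283 genes, adjusted p under 0.05). The procedure was tested on simulated data. Gene names came from RefSeq (GRCr8); map positions are those of the files (rn4). Replicate numbers are those of the scanner files. P200 columns 1 to 4 of the series matrix hold the values of scanner arrays 2, 3, 4 and 1, so the numbering within P200 is unsettled while the groups are intact. Deviations of same-numbered arrays correlated at -0.0024 to 0.28 by the scanner numbers and at -0.12 to 0.22 by the matrix numbers, so neither numbering was taken to pair the samples. Array by array values are given for the 20 member probes with the highest P20 mean and a gene symbol, list genes are the up to 4 called with the largest change or the one with the smallest p, and exceptions are named as such. Lists covered silencing machinery, methylation-prone, imprinted and flanking genes, family members and markers of macrophages, lung epithelium, fibroblasts, endothelium, lymphocytes and granulocytes or mast cells. Alternatives covered scaling, background correction, the deposited series matrix of raw spot median intensity, outlier spots, filters, probe choice, slide row, replicate block and left-out arrays.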

Additional observations from a re-analysis of the deposited data

Results flagged for a closer look

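In 3 of 82 groups of 4 arrays checked, over 41 member and list genes, 1 array lay apart from the other 3 by more than Dixon's critical value for the gap as a share of the group's range. Chance gives about 1 group in 20. Fam241b (second probe) read -5.87 on P200 replicate 2, beside -4.45 to -4.23 on the other P200 arrays. Pim3 read -1.72 on P20 replicate 3, beside -1.38 to -1.36 on the other P20 arrays. Sned1 read -0.97 on P20 replicate 4, beside -2.07 to -1.92 on the others. All of these lie on the same side of the thresholds of the rule as the rest of their group.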

How the results depend on the processing

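The number of member probes was 35, and it was 31 with the array median, 34 with quantile normalization, 35 with outlier spots kept, 27 with a P200 threshold of -4.5 and 35 to 41 with 1 array left out. It was 0 with normexp and 0 with the series matrix, scales that carry an added offset of 50 or unsubtracted background, 18 with the 75th percentile over spots (chosen after seeing the data), 22 with a P20 threshold of -2.5 and 87 by the scanner's flag alone. On the normexp and series matrix scales all P20 arrays lay above all P200 arrays for 34 of 35 probes each, with median differences of -1.05 and -1.37. The probes were chosen for this separation on the same arrays, so the count is no independent check. The share over all probes was not counted on these scales. The 20 named differences kept their sign and moved by less than the spread between replicates with the array median, quantile normalization and each left-out array. On the normexp and series matrix scales all 20 kept their sign but moved by more than that spread.

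The counts of genes called were lower in several settings. All genes gave 1765, against 632 with the array median, 799 without the background filter, 325 within slide row 1, 567 within slide row 2, 1458 with the replicate block and 1239 to 1668 with 1 array left out. Flanking genes gave 13, against 5, 7, 1, 2 and 11 in those settings, 31 of 174 with the 3 nearest genes a side and 11 to 14 with 1 array left out. Silencing machinery gave 4, against 1 with the array median, normexp, the series matrix, no filter and the replicate block, 0 within each slide row and 1 to 2 with 1 array left out. Methylation-prone genes gave 2, against 1 with the array median, no filter, the replicate block and each slide row, and 1 to 2 with 1 array left out. Imprinted genes gave 5, against 1, 2, 0 and 1 with the array median, no filter and slide rows 1 and 2, 3 with slide row as a block and 3 to 5 with 1 array left out. Family members gave 0, and 0 to 1 with 1 array left out. With slide row as a block the counts were 1251 for all genes, 10 for flanking genes and 3 for silencing machinery. In that fit they were 2 for methylation-prone genes and 0 for family members. With the replicate block by the series matrix numbering (chosen after seeing the data) the counts were 1217 for all genes, 11 for flanking genes, 1 for silencing machinery, 1 for methylation-prone, 3 for imprinted genes and 0 for family members. The flanking counts here include Tes. The fits within a single slide row hold 4 arrays each and were chosen after seeing the data. The cause of the other changes was not tested. Without the filter more genes were tested. Signals near background limit the size of every member's change.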
